A study of Ovis aries with 6 samples.

Results

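The 6 genes BMP4, TGFB1, BMPR1B, ACVR2A, NOG and BAMBI of BMP and TGF-beta signalling were followed in sheep skin. BMP4 and TGFB1 are secreted ligands, BMPR1B and ACVR2A are receptors, and NOG (noggin) and BAMBI are inhibitors. They were taken by identity, as all non-control probes of the array that carry a sheep RefSeq mRNA of these genes. This gave 10 probes of 15008 on the array, and 6 of the 476 genes that could be given a symbol. BMP4, BAMBI, ACVR2A and NOG had 2 probes each, and BMPR1B and TGFB1 had 1. All 10 passed the filter on dim probes.

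The skin was full thickness and came from Aohan fine wool sheep, 1 ram and 2 ewes of 12 months with the same father, reared in pens. Each animal gave skin from the body side, which bears wool, and from the groin, which does not, so that each site had 3 arrays. Replicate 1 was the ram at both sites, and replicates 2 and 3 were ewes. Each sample was hybridised, labelled with Cy3, to its own single-colour Agilent sheep array. The comparison was body side against groin, in a series whose title names wool growth in anagen, the growing phase of the follicle.

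BMP and TGF-beta ligands bring together type I and type II receptor kinases at the cell surface, and the type I kinase then activates SMAD proteins that enter the nucleus. Noggin binds BMP ligands outside the cell and keeps them from their receptors, and BAMBI resembles a type I receptor but lacks the kinase. In hair follicles, BMP signals take part in the differentiation of the hair shaft and in the resting phase, noggin from the dermal papilla is known to favour growth, and TGFB1 is known for promoting regression.

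The body side arrays were dimmer throughout. Their 75th percentile of signal was lower by 2.98-fold on average, a log2 difference of -1.57 for body side minus groin, and between 10731 and 14053 probes per array were well above background. A level below is the log2 signal less that array's own 75th percentile, so that 0 stands for a spot as bright as the percentile. Levels of different probes are not read as relative amounts of RNA, since probes bind with different strength. The summed levels of marker lists given below are weighted towards the bright probes. The groin arrays were scanned together and the body side arrays in another scan, and the effects of scan and site cannot be told apart. In whole skin, fewer cells of a type and less RNA per cell likewise cannot be told apart.

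With this scaling, 7 of the 10 probes were higher on the body side, 2 were lower and 1 did not pass (limma, Benjamini-Hochberg adjusted p under 0.05 over all 13278 tested probes). BMP4 and BAMBI were between 6.21-fold and 12.4-fold higher, BMPR1B was 3.39-fold higher and TGFB1 was 2.12-fold lower. The 2 probes of ACVR2A moved in opposite directions. Among all tested probes 69.9% were called, 37.0% higher and 32.8% lower, so a call by itself sets no gene apart. By the brightest probe of each gene, 71.0% of the genes with a symbol were called, 45.5% higher and 25.6% lower. The values of both sites did not overlap for 9 of the 10 probes, against 75.2% of all tested probes. The median log2 difference was 1.36 over the 10 member probes and 0.10 over all tested probes. Over the tested genes with a symbol, by their brightest probe, it was 0.39. Of the 7 probes called higher, some rest on the scaling. Without scaling between arrays BMPR1B was at 0.19, A_70_P051216 of ACVR2A at -0.62 and A_70_P068156 of NOG at -0.71, and none was called.

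**Figure D1:**
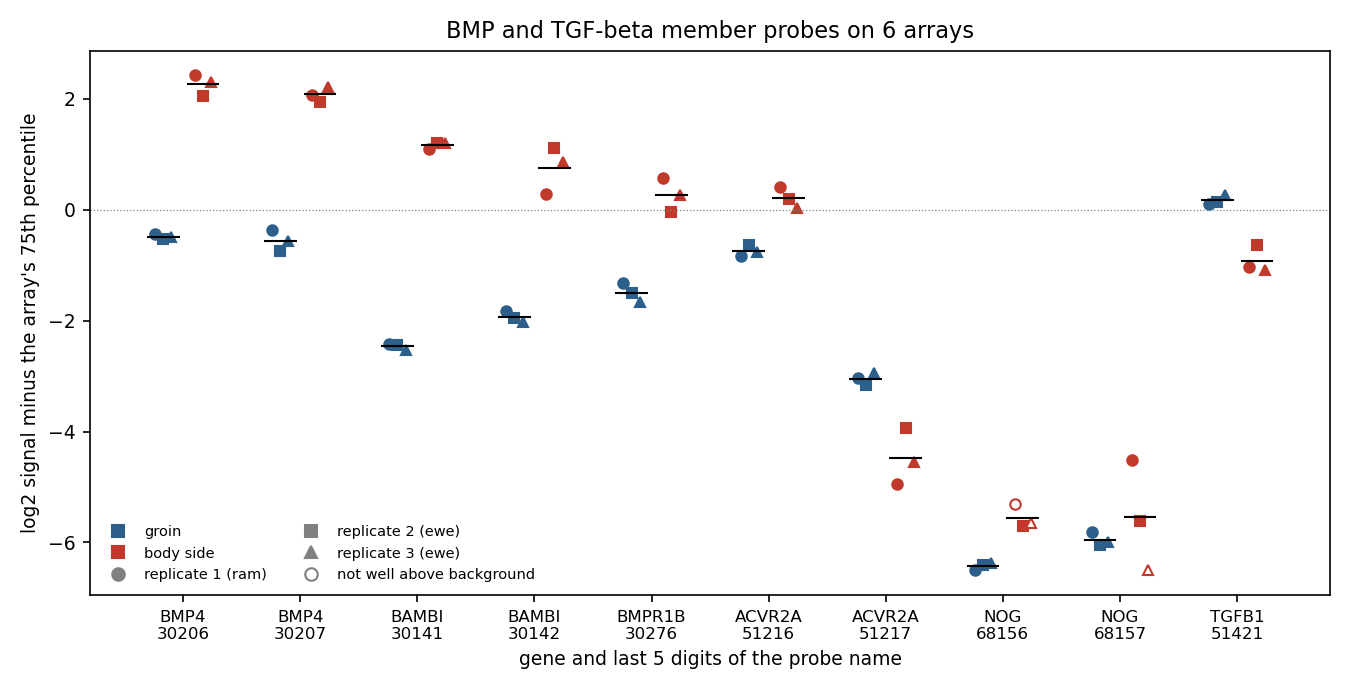
Level of each member probe on each of the 6 arrays, as log2 signal minus the array's 75th percentile; colours mark the site, shapes the replicate number, black lines the mean of 3 arrays, and open symbols spots that were not well above background. The sites are apart for every probe but NOG A_70_P068157, and ACVR2A is higher on the body side by A_70_P051216 and lower by A_70_P051217.

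BMP4, the BMP ligand of the group, was higher on the body side in all 3 animals by both of its probes. Probe A_70_P030206 was at -0.43, -0.53 and -0.50 on groin arrays 1, 2 and 3, and at 2.42, 2.05 and 2.31 on body side arrays 1, 2 and 3. The lowest body side array thus lay 2.48 log2 units above the highest groin array. Mean levels were 2.26 ± 0.19 for body side skin and -0.49 ± 0.05 for groin skin (SD, n = 3 each), a difference of 2.75 ± 0.17 SE (limma adjusted p = 1.16e-05). Probe A_70_P030207 gave 2.63 ± 0.18 SE, or 6.21-fold, from levels of -0.37, -0.74 and -0.56 in the groin and 2.07, 1.94 and 2.22 on the body side.

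The rise of BMP4 was also present before any scaling between arrays. The processed signal of A_70_P030206 was 2731, 2892 and 3116 intensity units on the groin arrays and 5908, 8502 and 5616 on the body side arrays, although the latter were dimmer as a whole. That is 2.25-fold higher, with no overlap (two-sided exact permutation p = 0.1; groups of 3 and 3 allow no smaller p). On every array both BMP4 probes were at least 251 times as bright as the 95th percentile of the 77 negative control spots. The site difference moved with brightness across the array, with a median of 0.68 in the brightness group of A_70_P030206 (the ninth of 10 equal groups, from dim to bright). BMP4 lay 2.07 log2 units above that median.

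BAMBI, the pseudoreceptor, had the largest site difference of the 6 genes, by probe A_70_P030141. That probe was at -2.43, -2.44 and -2.53 in the groin and at 1.09, 1.20 and 1.20 on the body side. The arrays of each site lay close together, with SDs of 0.06 at both sites. The difference of 3.63 ± 0.15 SE (12.4-fold, limma adjusted p = 5.54e-06) was exceeded in absolute size by 1.63% of the tested probes. Probe A_70_P030142 was at -1.84, -1.95 and -2.02 in the groin and at 0.28, 1.11 and 0.85 on the body side. It differed by 2.68 ± 0.23 SE, or 6.43-fold, and the ram's body side array was its lowest of that site.

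Without scaling the BAMBI probes were still 4.15-fold and 2.16-fold higher on the body side. The signal of A_70_P030141 was 684, 771 and 763 in the groin and 2355, 4708 and 2602 on the body side, with no overlap. In the brightness group of both BAMBI probes the median difference over all probes was -0.13. The BAMBI probes lay 3.76 and 2.81 log2 units above it.

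**Figure D2:**
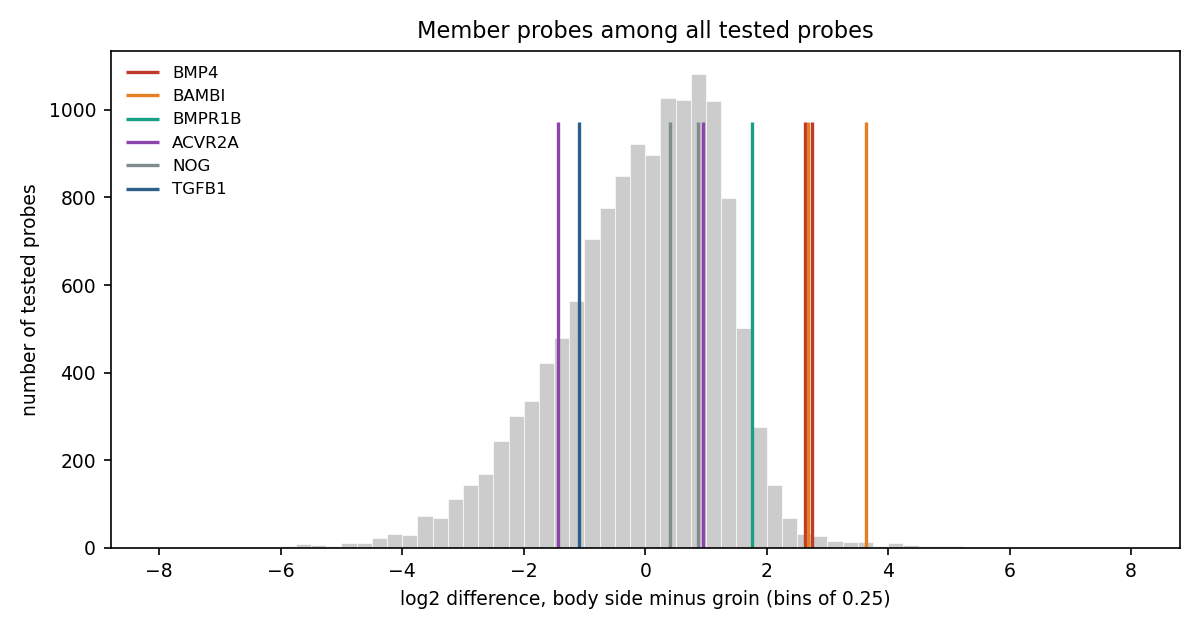
Number of tested probes by log2 difference, body side minus groin, in bins of 0.25, with a line for each member probe. The BMP4 and BAMBI lines, at 2.63 to 3.63, lie in the upper tail, and those of ACVR2A, NOG and TGFB1 lie in the body of the distribution.

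BMPR1B, a type I BMP receptor known in sheep breeding as the gene of the Booroola fecundity trait, was also higher on the body side. Its probe A_70_P030276 was spotted 5 times on each array, of which 4 or 5 spots were usable. Levels were -1.32, -1.50 and -1.66 in the groin and 0.58, -0.05 and 0.27 on the body side. The difference was 1.76 ± 0.21 SE (limma adjusted p = 1.78e-04), and the sites were 1.27 log2 units apart at their nearest. The SD between spots of an array ran from 0.02 to 0.12, below the SD between animals, which was 0.31 for the body side and 0.17 for the groin.

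Before scaling, the BMPR1B signal was 1469, 1476 and 1390 in the groin and 1648, 1980 and 1367 on the body side. These overlap, with an unscaled log2 difference of 0.19 (exact permutation test, two-sided p = 0.4). Its rise is therefore one relative to the other probes of the array. In its brightness group the median difference was -0.13.

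ACVR2A, a type II receptor used by activins and by several BMPs, gave opposite answers by its 2 probes. The brighter, A_70_P051216, was at -0.83, -0.63 and -0.77 in the groin and at 0.41, 0.20 and 0.03 on the body side, a difference of 0.96 ± 0.17 SE (1.94-fold higher, limma adjusted p = 0.00136). The dimmer, A_70_P051217, was at -3.04, -3.16 and -2.95 in the groin and at -4.95, -3.93 and -4.55 on the body side, a difference of -1.43 ± 0.26 SE (2.69-fold lower, limma adjusted p = 0.00136). Neither probe's values overlapped between the sites, and both were well above background on all 6 arrays.

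The disagreement can be put in a form that no constant scaling of an array can change. The log2 ratio of the brighter to the dimmer ACVR2A probe on the same array was 4.69 ± 0.62 in body side skin and 2.31 ± 0.20 in groin skin (SD, n = 3 each). The ratio was 2.39 log2 units higher on the body side (two-sided exact permutation p = 0.1, as small as 3 against 3 allow). On the body side arrays A_70_P051217 read 35.7, 134 and 48.1 intensity units, against 446, 466 and 570 in the groin. On body side array 1 it was 2.17 times the 95th percentile of the negative controls. With normexp background correction its difference was -0.47, still called and still opposite to that of A_70_P051216, at 1.02. The mean of both probes was -0.24 and did not pass (limma adjusted p = 0.255, where the adjusted p of the brighter probe ran up to 0.117 in the other alternatives).

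Among the 504 accessions with 2 or more tested probes, the median gap between the site differences of their probes was 0.38, and 4.96% had a larger gap than ACVR2A. Probes called in opposite directions occurred in 26 of these accessions (5.16%). The gap was 0.11 for BMP4, 0.95 for BAMBI and 0.45 for NOG. No direction is therefore given for ACVR2A as a gene. Where the probes lie on the transcript is not given in the sources used here.

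**Figure D3:**
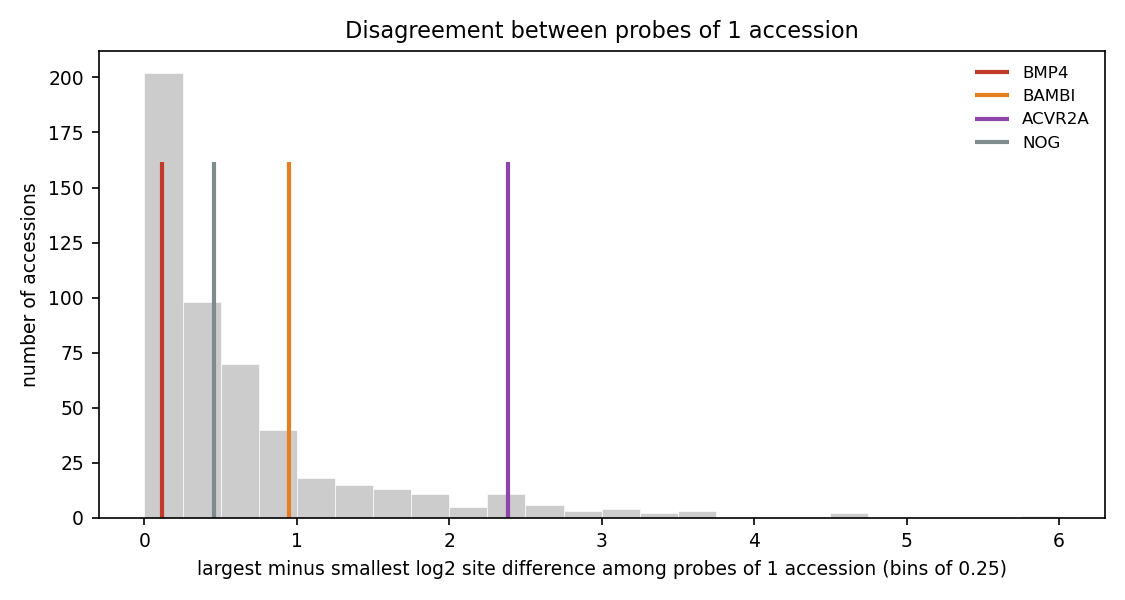
Number of accessions by the gap between the largest and the smallest log2 site difference among their probes, in bins of 0.25, with lines for the 4 members that have 2 probes. BMP4, at 0.11, lies in the first bin, and ACVR2A, at 2.39, lies in the sparse upper tail.

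NOG, the secreted BMP antagonist, was dim at both sites. Both of its probes were well above background on all 3 groin arrays, at 3.74 to 12.7 times the 95th percentile of the negative controls. Probe A_70_P068156 was at -6.50, -6.40 and -6.36 in the groin and at -5.31, -5.70 and -5.65 on the body side, where 1 of 3 arrays read it well above background. It was called higher, at 0.87 ± 0.17 SE (limma adjusted p = 0.00228). Probe A_70_P068157 was at -5.82, -6.05 and -5.99 in the groin and at -4.50, -5.62 and -6.50 on the body side, with 2 of 3 body side arrays well above background. Its body side values spread on both sides of the groin values, and its difference of 0.41 ± 0.43 SE did not pass (limma adjusted p = 0.414).

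The raw NOG signals were lower on the body side, from 40.6 to 53.5 units in the groin against 22.5 to 39.4 on the body side for A_70_P068156. The call of that probe thus rests on the scaling, and its unscaled difference was -0.71. On the body side arrays the 2 NOG probes were between 1.66 and 7.91 times the 95th percentile of the negative controls. The 2 probes gave no common call for NOG at this signal.

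TGFB1, the TGF-beta ligand of the group, was lower on the body side. Its probe A_70_P051421 was at 0.10, 0.14 and 0.26 in the groin and at -1.04, -0.63 and -1.09 on the body side. The sites were 0.72 log2 units apart at their nearest. Mean levels were -0.92 ± 0.25 for body side skin and 0.17 ± 0.09 for groin skin (SD, n = 3 each), a difference of -1.09 ± 0.18 SE (limma adjusted p = 9.84e-04). The unscaled signal was 3933, 4595 and 5288 in the groin and 536, 1326 and 532 on the body side, or 6.32-fold lower. A difference at least as large in absolute size was not rare: 40.8% of all tested probes exceeded it.

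**Figure D4:**
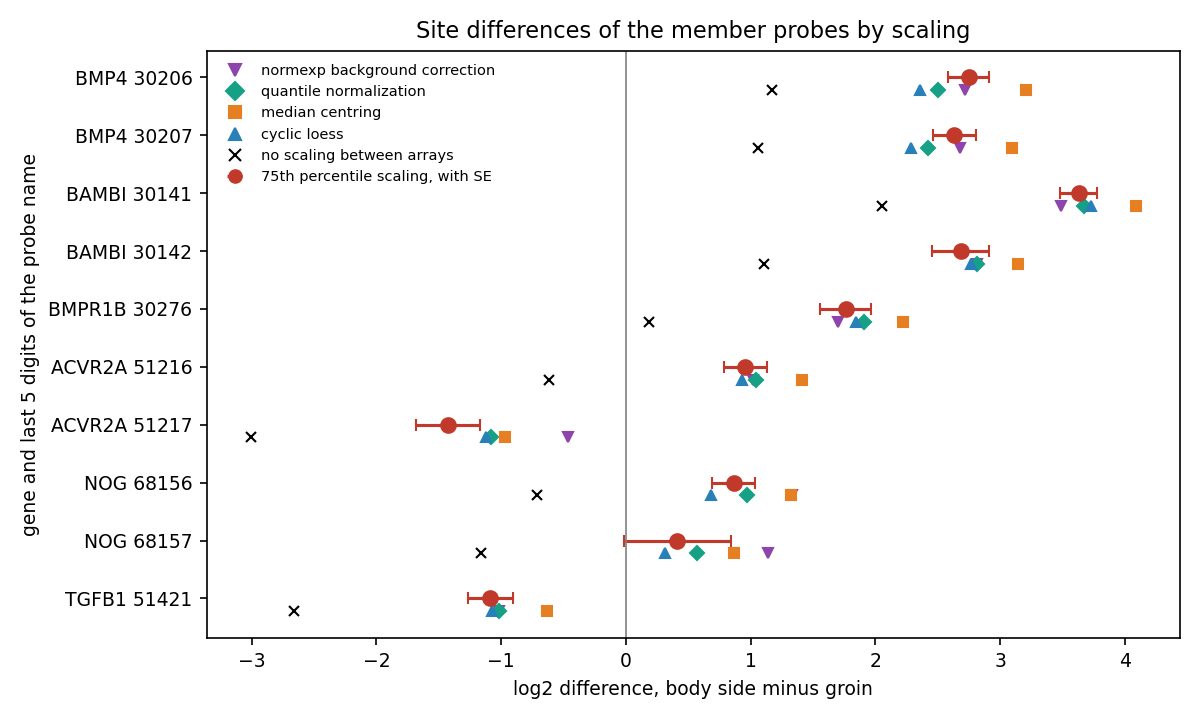
Log2 difference of each member probe, body side minus groin, with the 75th percentile scaling (circles, with the SE of the moderated fit) and with 5 other treatments of the same arrays (small symbols). BMP4, BAMBI, BMPR1B and TGFB1 keep 1 side of 0 in all 6, whereas A_70_P051216 of ACVR2A and both NOG probes lie below 0 without scaling. BMPR1B is at 0.19 without scaling and does not pass there.

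Ratios of 2 genes on the same array do not depend on the scaling by a constant, and 5 of them were computed, BMP4 over each other gene by its brightest probe. The log2 ratio of BMP4 to TGFB1 was 3.83 higher on the body side than in the groin, or 14.3-fold, with the nearest arrays 3.21 apart. The ratio to NOG was higher by 2.33, that to ACVR2A by 1.79 (A_70_P051216) and that to BMPR1B by 0.98, in each case with no overlap between the sites. The NOG probe in the BMP4 to NOG ratio was not well above background on body side array 3, which gave the highest ratio, at 3.34 above the groin mean against 1.46 and 2.20 on the others, and with normexp the change was 1.58. Each of these 4 had an exact permutation p of 0.1 (two-sided, the smallest possible). By its site difference A_70_P030206 of BMP4 ranked 111 among the 13278 tested probes, counted from the highest. Its mean ratio to nearly any other probe was thus higher on the body side, and the direction of these ratios sets no pair of members apart. The ratio of BMP4 to BAMBI differed by 0.06 between the sites, with the body side arrays on both sides of the groin arrays (exact permutation test, two-sided p = 0.8).

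On body side arrays 1, 2 and 3 the ratio of BMP4 to TGFB1 lay 4.11, 3.33 and 4.05 log2 units above the groin mean. The ratio to BMPR1B was the most even, at 0.83, 1.09 and 1.03. The other BAMBI probe, which is not in that ratio, had a site difference of 3.63 against 2.75 for BMP4.

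**Figure D5:**
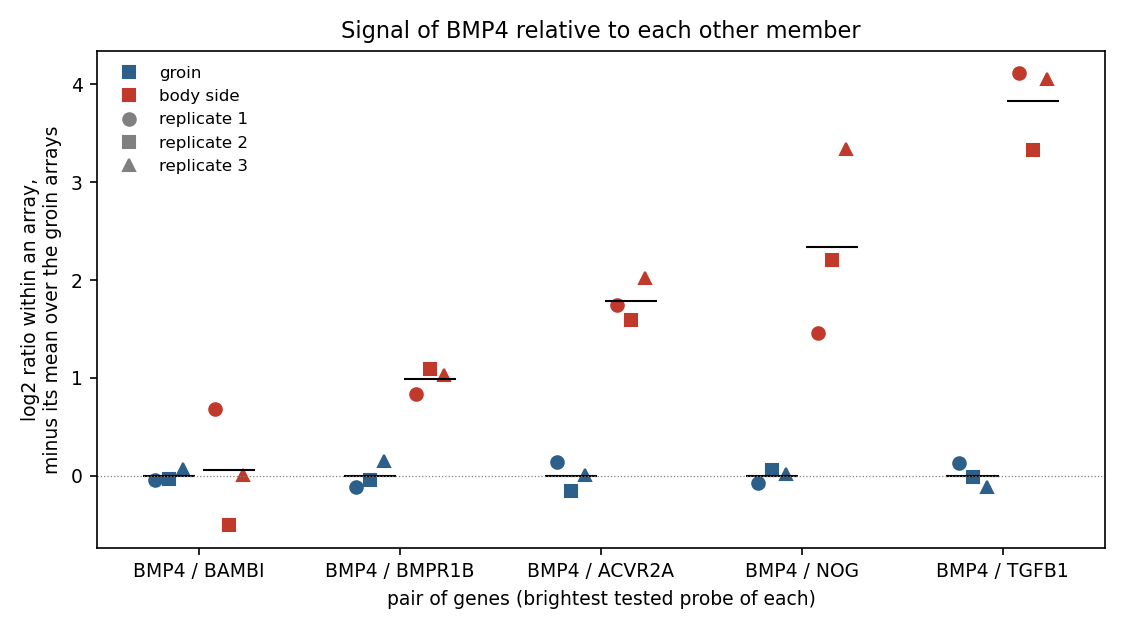
Log2 ratio of BMP4 to each other member within an array, minus the mean of that ratio over the groin arrays; colours mark the site, shapes the replicate number and black lines the means. The body side arrays lie above the groin arrays for BMPR1B, ACVR2A, NOG and TGFB1, at means of 0.98 to 3.83, and around them for BAMBI.

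The site difference was also set side by side in the ram and the ewes. For A_70_P030206 of BMP4 it was 2.85 in the ram and 2.70 in the ewes, and for TGFB1 it was -1.14 and -1.06. None of the 10 probes passed the limma interaction term of site and sex, which called 0.113% of the 13250 probes it could be fitted to. Before adjustment 1 member probe was under 0.05, A_70_P068157 of NOG (limma adjusted p = 0.464), which differed by 1.32 in the ram and -0.039 in the ewes. That contrast rests on 1 ram, with 1 array per site, and the spread it is tested against comes from the ewes alone, so that not passing says little about whether the ram differed.

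Of 92 other genes listed for the pathway, 5 had a probe with a symbol and 4 were tested, of which 3 rose and 1 fell. Among genes with a symbol 45.5% were called higher and 25.6% lower by their brightest probe. The median log2 difference of the 4 was 0.81, against 0.39 over all 442 tested genes with a symbol. The lists of further receptors (12 genes) and of SMADs and other transducers (15 genes) had no probe with a symbol, so that these steps of the pathway were not analysed here, and no target gene is reported.

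INHBA, the activin A subunit and a ligand for ACVR2A, was the other ligand with a large rise. Its brighter probe was at -1.06, -1.07 and -1.16 in the groin and at 1.46, 1.06 and 1.31 on the body side. The difference was 2.37 ± 0.17 SE (5.18-fold, limma adjusted p = 2.33e-05), its other probe gave 2.34, and without scaling the brighter probe was still 0.80 higher. MSTN (myostatin), another ligand of activin receptors, was at -5.21, -5.23 and -5.17 in the groin and at -3.96, -5.02 and -4.43 on the body side. It rose by 0.73 ± 0.26 SE (limma adjusted p = 0.0341), a call lost on leaving out any groin array, body side array 1 or body side array 3, at 0.47 without body side replicate 1, and its unscaled difference was -0.85. BMP15 had 2 probes, and neither was bright enough to be tested.

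The proteoglycans DCN and BGN, which bind TGF-beta in the matrix, went opposite ways with the main scaling. Without scaling between arrays both were called lower, at -0.68 and -2.43. DCN rose by 0.89 ± 0.24 SE (limma adjusted p = 0.00922), from 6.51, 6.54 and 6.36 in the groin to 7.58, 6.85 and 7.66 on the body side. It was called lower with cyclic loess (-0.81). With quantile normalization it was at -0.36 and did not pass (limma adjusted p = 0.0525), and the second DCN probe, at 0.32, did not pass either. BGN fell by 0.86 ± 0.19 SE, from -0.91, -0.84 and -0.44 in the groin to -1.44, -1.68 and -1.64 on the body side; with median centring the difference was -0.40 and did not pass. Both calls ended without replicate 3, at 0.69 and -0.69.

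Cell type markers moved with the site as well. All 7 tested genes of the hair shaft and inner root sheath list, led by KRT35, were higher on the body side, and their summed level was 588 to 1018 times the array's 75th percentile there, against 72.4 to 88.1 times in the groin. Of 5 tested papilla and dermal fibroblast genes, 3 fell (MMP2 with the smallest p), 1 rose (DCN, below 0 with quantile normalization and called lower with cyclic loess) and 1 did not pass. The last was FGF10 by its brightest probe, while its 3 dimmer probes were called lower, at -3.01, -1.30 and -2.16. The summed level of this list was 116 to 203 on the body side against 84.9 to 95.6 in the groin, nearly all of it DCN, and without DCN it was 0.57 to 0.63 against 2.24 to 2.75. Both endothelial genes fell, at sums of 0.15 to 0.17 in body side skin against 0.31 to 0.37 in the groin, with SELE first. Of 7 leukocyte genes, 3 rose (CD3E first) and 2 fell by their brightest probe. Their sums were 8.24 to 10.2 on the body side and 5.65 to 5.98 in the groin (3.57 to 4.63 and 4.06 to 4.35 without CD3E). The second probes of CD14 and ITGAM, which did not pass by their brightest, were called lower, at -0.89 and -3.02. That of FCER1A, a rise, was at -0.59 and did not pass, and the other leukocyte genes kept their calls by the second probe. The epidermal keratinocyte list had no probe with a symbol, so the label of skin could be checked only on the follicle and dermal genes. The part of these cell types in the changes of BMP4, BAMBI, BMPR1B and TGFB1 was not tested.

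In the remaining lists, muscle had 2 rises and 1 fall among 4 genes, and MB, which rose by 1.86, had the smallest p. The glands had 3 rises and 1 fall among 5, and the fall, SCD at -6.08, had the smallest p. SCD was well above background on 0 of the body side arrays. Fat had 1 of each, and the fall, LPL at -0.71, came first. Blood also had 1 rise and 1 fall, the fall being CA1 at -7.06, with the smaller p. TYR, the 1 pigment gene tested, rose. The muscle sums overlapped between the sites, at 21.4 to 33.4 for the body side against 26.7 to 31.1 for the groin, but not without CNN1, the brightest, at 6.92 to 9.22 against 3.45 to 4.64. Fat summed to 2.70 to 4.76 on the body side and 2.11 to 2.40 in the groin. Without PLIN1, its brightest gene, it was 0.018 to 0.024 against 0.030 to 0.037. The gland sums overlapped, but without AQP5 were 0.12 to 0.15 on the body side against 0.37 to 0.65. Blood was at 0.20 to 0.54 on the body side against 1.58 to 2.28, and TYR at 0.11 to 0.16 against 0.036 to 0.042.

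The genes with the most similar course over the 6 arrays were found by the root mean square distance between centred levels, among 433 other genes with a symbol. For BMP4 they were INHBA, at 0.19 log2 units, and the galectin LGALS15, also at 0.19. For BAMBI, by A_70_P030142, they were the chemokine CXCL8, at 0.19, and the keratin-associated protein KRTAP4.3, at 0.24. For BMPR1B they were CAST, at 0.07, and RAC1, at 0.09, and for TGFB1 PON2 and MAPKAP1, both at 0.08. The brighter ACVR2A probe lay nearest to IFNG, at 0.10, and BCAT1, at 0.11. For the brighter NOG probe they were MMP14, at 0.32, and PLIN1, at 0.38, but that probe was not well above background on body side array 3, so no likeness is read from these distances. Between members, each by its brightest probe, the nearest were BMP4 and BAMBI, at 0.35, and the farthest BMP4 and TGFB1, at 1.93. The other BAMBI probe, A_70_P030141, had a larger site difference (3.63 against 2.68), so which pair is nearest can depend on the probe. These distances describe 6 arrays in which site is the main difference.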

How the data were processed

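RNA from body side and groin skin (3 arrays each) was amplified, labelled with Cy3 and put on single-colour arrays, per the labels' protocols. The submitters' processing notes name Agilent Feature Extraction 10.5.1.1. The deposited processed signal is an intensity corrected for background and detrended within the array, with no scaling between arrays, per the file headers. The authors also deposited log2 values with 1 common median (8.31), which correlated with the quantile-normalized processed signals at 0.999; their background step is not given in the sources used here.

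Control spots and spots with outlier flags (6 to 51 per array) were left out, no non-control spot was saturated, and spots of a probe were averaged. Levels are log2 processed signal minus the array's 75th percentile. A probe was tested when well above background on all 3 arrays of a site, with at least 2 values per site. Body side minus groin differences were fitted with limma 3.58.1 under R 4.3.3 (lmFit, eBayes, Benjamini-Hochberg, threshold 0.05). On simulated data with 13210 probes, 100 were changed 4-fold and 100 were changed 2-fold, and 84% and 37% of these were called. In the real data 69.9% of the probes were called, and the adjustment is stricter where few probes change. The simulated rates therefore do not give the sensitivity of the fit to the real data. Symbols came from RefSeq accessions in a gene table of ARS-UI_Ramb_v3.0 (734 probes matched of 15008). No coordinates are printed, since no build is named in the files. Replicates are separate animals, and the number of arrays limits the precision.

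The genes, the lists and the tests were chosen with earlier results of these data known. Named are all members with every probe, every tested gene of the pathway lists (a listed gene is not reported here), the gene with the smallest p of each marker list, and the 2 nearest profiles of each member. The labels do not tie ewes 2 and 3 to 1 number across sites, so the numbers were not taken as pairs. Same-numbered arrays deviated from their site means with correlations of 0.16, 0.09 and -0.09. The ram, a known pair, gave only 0.16, so these values cannot show whether numbers 2 and 3 are pairs. The main fit thus treats the arrays of an animal as independent, and the replicate block is among the alternatives.

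Alternatives were normexp (offset 50) on the median spot and background intensity, quantile normalization, median centring, cyclic loess, no scaling, the authors' log2 table, dim probes kept in or filtered on all 6 arrays, a variance trend, a replicate block, the mean of a gene's probes, the ewes alone and each array or replicate number left out.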

Additional observations from a re-analysis of the deposited data

How the results depend on the processing

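BMP4, BAMBI and TGFB1 kept their direction and stayed past the threshold by every probe in all alternatives run, and INHBA did by its brighter probe, the only INHBA probe run in them; the ranges were 1.17 to 3.20 for BMP4 (A_70_P030206), 1.11 to 3.16 for BAMBI (A_70_P030142) and -2.66 to -0.63 for TGFB1. Without scaling between arrays BMPR1B was at 0.19 (limma adjusted p = 0.558), ACVR2A (A_70_P051216) at -0.62, NOG at -0.71 (A_70_P068156) and -1.16 (A_70_P068157), MSTN at -0.85 and DCN at -0.68. In that setting 190 probes were called higher and 9412 lower, and of the other pathway genes 1 and 3, where the dimness of the body side arrays is left in. The mean of both probes put ACVR2A at -0.24. NOG by A_70_P068157 was called with normexp (1.14), lay between -0.11 and 0.89 in the leave-outs, the latter called without body side replicate 3, and was at -0.039 in the ewes alone. DCN turned with quantile normalization (-0.36), cyclic loess (-0.81) and the deposited log2 values (-0.37), and of these only cyclic loess passed the threshold. Of the other pathway genes, limma called 0 lower with median centring and 2 with cyclic loess; in the leave-outs 1 to 3 were called higher and 0 to 1 lower, and BGN was lost with median centring (-0.40, adjusted p = 0.0696) and without replicate 3 (-0.69, adjusted p = 0.0695).

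The ratio of BMP4 to BAMBI had no stable sign: it was -0.10 with normexp, -0.32 with quantile normalization, -0.41 with cyclic loess, -0.37 with the deposited values, -0.27 in the ewes alone and -0.27 to 0.35 in the leave-outs. The other ratios kept their sign. Quantile normalization, cyclic loess and the deposited values gave 0.59, 0.51 and 0.60 for BMPR1B and 1.46, 1.42 and 1.55 for ACVR2A; cyclic loess gave 3.43 for TGFB1 and normexp 1.58 for NOG. The causes were not tested. The median difference of all tested probes, 0.10 with the main scaling, was 0.46 with normexp, 0.069 with quantile normalization, 0.56 with median centring and -0.014 with cyclic loess. Higher calls, 53.0% of all calls, made up 68.6% with normexp, 68.5% with median centring and 61.8% with the filter on all 6 arrays.

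With the replicate block 9211 probes were called in place of 9279, and no call on a member changed. Signal over background limits NOG and A_70_P051217 of ACVR2A most.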
